A study of Mus musculus with 36 samples.

Results

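The peaks described here are 296 sites of open chromatin that gained accessibility when mouse dendritic cells were exposed to PAM and did not pass a small margin with LPS, SeV or 3',3'-cGAMP. They were taken from 119751 peaks, of which 116556 on chromosomes 1 to 19 entered the choice, so they make up 0.254% of the autosomal peaks. The assay was ATAC-seq: a transposase cuts and tags DNA that is not covered by nucleosomes, and tagged fragments are counted over each peak. The cells were bone marrow-derived dendritic cells, grown in 15 ng/mL GM-CSF from marrow of C57BL/6J mice (females aged 6 to 8 weeks) and stimulated for 6 h. Each of 18 groups had 2 libraries: Ctrl (no ligand), the single ligands Zymosan depleted (Z), 3',3'-cGAMP (cG), SeV (S), HMW (H), LPS (L) and PAM (P), the pairs PL, PH, LH, PS, PcG, ScG, ZS and ZcG, and the triplets PLH, PScG and ZScG. All groups were wild-type cells cultured alike, and a combination is named here by the letters of its ligands. The labels do not say whether the 2 libraries of a group came from separate mice or cultures, so every p-value below measures only the spread between these libraries, which may be technical.

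The peaks were chosen by the measured counts of the 10 libraries of Ctrl, P, L, S and cG. For each peak, x was log2(CPM + 0.5), centred on the median of its library, where CPM is the count scaled to the library's counts on chromosomes 1 to 19 without the peak of largest count. The difference d was the mean x of a group's 2 libraries minus the mean x of Ctrl. Peaks with d of P at least 1.5 and d of L, S and cG each at most 0.5 were taken. Values in these 5 groups are therefore given as a description without a test, and the contrasts tested below are only among the 13 other groups. The filter, the scaling and the estimate of spread in that fit used all 36 libraries. The 2 peaks just inside the limit for P had d of 1.501 (nearest to Gm597) and 1.506 (nearest to Gm7168), and the 2 just outside had 1.498 (Ankrd12 and Ankrd66). At the limit for L, the closest members had d of 0.500 (Cpsf6) and 0.496 (Tasp1), against 0.500 (Spata13) and 0.502 (Dmac1) just outside. The closest values for S were 0.496 (Gucy2c) and 0.480 (Vrk2) inside and 0.506 (Gm5148) and 0.508 (Gm14325) outside. For cG they were 0.500 (Pcmtd1) and 0.493 (Ptpn1) inside and 0.500 (Rnf144a) and 0.501 (Galnt1) outside.

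Pattern recognition receptors sense microbial molecules and switch on defence genes. Pam is the usual short name of synthetic palmitoylated lipopeptides, which are recognised at the cell surface by TLR2 together with TLR1 or TLR6. LPS, from the outer membrane of Gram-negative bacteria, is recognised by TLR4 with its co-receptor MD-2. Both receptors signal through the adaptor MyD88 to NF-kappaB and MAP kinases, and TLR4 also signals from endosomes through the adaptor TRIF to interferon regulatory factors. Sendai virus is commonly abbreviated SeV and is sensed by RIG-I, 3',3'-cGAMP is a ligand of STING, and zymosan is a yeast cell wall preparation sensed by TLR2 and the lectin receptor Dectin-1. The labels do not spell out PAM, HMW or the depletion of the zymosan. Binding of activated transcription factors to distal enhancers and promoters is the usual route by which such signals open chromatin.

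Few of the 296 peaks lay at the start of a gene. Among the 278 with a distance to a start of a protein-coding gene, 2 (0.719%) lay within 1000 bp of one, against 10.8% of autosomal peaks and 2.05% of the 3367 other peaks with d of P at least 1.5. The other members lie on a chromosome with no start in the RefSeq promoter table and were left out of these shares. A distance over 50000 bp was found for 151 (54.3%), against 35.5% of autosomal peaks and 46.5% of the other PAM-opened peaks. A protein-coding gene was overlapped by 139 (47.0%), against 59.4% and 52.9%. The median width was 413 bp, with quartiles of 312 and 528 bp, against a median of 451 bp over all autosomal peaks and 523 bp over the other PAM-opened peaks. These shares were not tested.

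The sequences of 3 members that overlap a RefSeq promoter window (250 bases before to 50 after an annotated start, GRCm38.p6) are shown, since they are the member sites whose bases are held in the reference used. The peak over the start of Cxcl3 covers the whole window chr5:90785851-90786150 on the plus strand. Cxcl3 encodes a neutrophil-attracting CXC chemokine, and its relatives Cxcl1 and Cxcl2 lie on the same chromosome, so the windows of all 3 genes are given, 5′ to 3′, with matches to an NF-kappaB motif in capitals.
Cxcl3: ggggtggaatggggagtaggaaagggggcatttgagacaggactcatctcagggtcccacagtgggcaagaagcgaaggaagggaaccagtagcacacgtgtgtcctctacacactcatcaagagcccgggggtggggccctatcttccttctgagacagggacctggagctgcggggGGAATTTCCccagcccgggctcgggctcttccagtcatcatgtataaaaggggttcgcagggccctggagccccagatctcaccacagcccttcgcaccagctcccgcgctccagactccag
Cxcl1: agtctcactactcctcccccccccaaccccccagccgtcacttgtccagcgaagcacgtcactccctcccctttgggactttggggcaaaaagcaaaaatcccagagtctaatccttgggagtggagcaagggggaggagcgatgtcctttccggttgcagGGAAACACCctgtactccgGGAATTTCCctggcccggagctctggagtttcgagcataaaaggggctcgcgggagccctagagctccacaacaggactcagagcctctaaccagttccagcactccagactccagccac
Cxcl2: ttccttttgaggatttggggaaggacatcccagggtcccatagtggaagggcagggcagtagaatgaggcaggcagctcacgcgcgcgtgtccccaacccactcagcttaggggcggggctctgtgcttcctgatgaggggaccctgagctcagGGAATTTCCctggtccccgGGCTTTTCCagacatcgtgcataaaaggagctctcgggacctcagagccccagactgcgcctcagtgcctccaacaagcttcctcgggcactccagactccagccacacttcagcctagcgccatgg
The Cxcl1 window is chr5:90890995-90891294 and the Cxcl2 window chr5:90903649-90903948, both on the plus strand. The motif GGNNTTTCC, searched on both strands, matched at 1 position in Cxcl3, starting at base 179 of the window, and at 2 positions in each of Cxcl1 and Cxcl2. It was present in 5.87% of the 31365 windows on autosomes. The AP-1 motif TGANTCA, present in 7.85% of windows, had no match in these 3. A match describes letters only and was not tied to binding of a factor. Another pair of members reached into windows of genes without a known protein: LOC115486327 (chr6:4805945-4806244, minus strand) and Gm46183 (chr10:121807272-121807571, plus strand). Their windows are printed with the 128 and 96 bases inside the member peak in capitals.
LOC115486327: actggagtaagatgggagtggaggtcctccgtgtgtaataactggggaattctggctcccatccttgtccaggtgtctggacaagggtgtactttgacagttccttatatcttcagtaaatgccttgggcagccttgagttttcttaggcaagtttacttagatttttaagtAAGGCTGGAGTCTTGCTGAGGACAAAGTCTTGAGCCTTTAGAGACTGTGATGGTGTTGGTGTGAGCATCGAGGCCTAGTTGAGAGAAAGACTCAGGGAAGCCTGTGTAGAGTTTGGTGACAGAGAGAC
Gm46183: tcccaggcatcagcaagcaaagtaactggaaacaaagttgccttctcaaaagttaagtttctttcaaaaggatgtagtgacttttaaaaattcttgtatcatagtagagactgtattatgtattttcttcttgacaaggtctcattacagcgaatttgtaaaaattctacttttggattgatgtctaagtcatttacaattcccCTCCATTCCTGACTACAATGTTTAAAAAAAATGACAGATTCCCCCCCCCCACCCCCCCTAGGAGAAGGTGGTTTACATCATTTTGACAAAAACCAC
Neither window held a match to the NF-kappaB or the AP-1 motif.

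Counts per library ranged from 19097027 to 39977088 in total, and the autosomal counts behind CPM from 5973882 to 18387733 (median 10157839). A floor of 3 counts corresponds to 0.163 to 0.502 CPM, and it covers counting error only. The mitochondrial peak took 58.3% to 63.0% of counts (group means) in Ctrl, Z, ZcG, ScG and ZScG and 44.4% to 54.5% in the 13 other groups. Its part in the results was not tested, and each comparison below is said to lie within one of these sets or to cross them. Of the 8 dendritic cell markers checked, all had a peak within 1000 bp of a gene end, with medians over libraries of 5.42 (Zbtb46) to 19.1 (Itgax) CPM per kb, against a median of 6.05 CPM per kb over all autosomal peaks. The 6 macrophage markers also had peaks (9.10 to 19.2 CPM per kb), as did S100a8, S100a9 and Camp of the neutrophil list, Cd3d and Cd4 of the T cell list, Cd79a and Ms4a1 of the B cell list and Klf1 of the erythroid list (4.66 to 27.7 CPM per kb). Ly6g, Elane, Mpo, Ltf, Cd3e, Cd8a, Lck, Pax5 and Hbb-bt had no peak. The part of other cell types in the results was not tested.

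By the rule, the members were low without ligand and high with PAM. Their median CPM was 0.823 and 0.811 in the Ctrl libraries and 4.36 and 4.77 in the P libraries. The L libraries had medians of 1.35 and 1.08 CPM, the S libraries 0.781 and 0.812, and the cG libraries 0.718 and 0.645. At 295 of the 296 peaks both P libraries lay above all 8 libraries of Ctrl, L, S and cG. These 10 libraries chose the peaks, so this count largely follows from the rule. The exception, nearest to Crebzf, rests on 1 library, with 0.793 and 28.5 CPM in P. The median d was 1.71 for P, 0.24 for L, -0.16 for S and -0.19 for cG. With LPS the members thus stood slightly above Ctrl, and d of L was below 0 at 70 of the 296. The counts were small in places, since 5 members had no count in either Ctrl library and 47 had at most 3 counts in each. In bulk counts, a site that opens in fewer cells and a site that opens less in each cell cannot be told apart.

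The same choice made from 1 library per group can be read in the libraries it did not use. Those libraries belong to the same groups that the rule used, so the values are a description without a test. The rule on replicate 2 alone took 431 peaks, and in replicate 1 their median d of P was 1.37, with 308 (71.5%) at 1 or more, against 10.4% of all autosomal peaks. On replicate 1 alone it took 242 peaks, and in replicate 2 their median d of P was 1.63, with 184 (76.0%) at 1 or more, against 10.4%. In the libraries not used, the median d of L was 0.41 and 0.33, beside the limit of 0.5 that the choice had set in the other libraries. There d of L was at least 1 at 80 of the 431 (18.6%, against 11.8% of all autosomal peaks). For the 242 the count was 35 (14.5%, against 9.68%). These shares with LPS were thus above those of all peaks. Only 51 peaks were taken by both single replicates. Members made up 146 (33.9%) of the 431 peaks and 102 (42.1%) of the 242. The values in this paragraph therefore describe the choices from single replicates and not the members as a set.

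**Figure D1:**
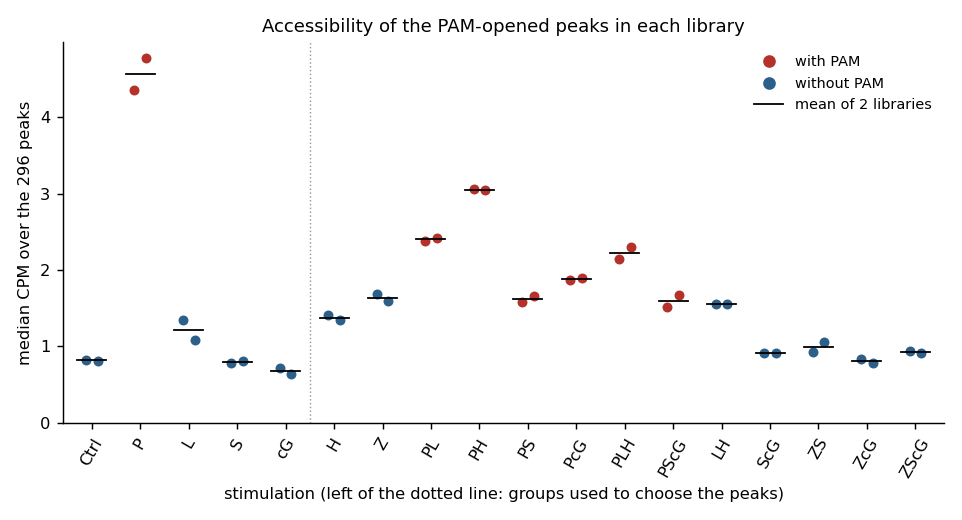
Median CPM over the 296 peaks in each of the 36 libraries, as points, with the mean of the 2 libraries of a group as a line. The P libraries stand at 4.36 and 4.77, the PH libraries at 3.06 and 3.04, and the libraries without PAM between 0.645 and 1.68.

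Among the groups that played no part in the choice, accessibility of the members was highest in PH. The median CPM was 3.06 and 3.04 in PH, 2.38 and 2.42 in PL and 2.15 and 2.30 in PLH. It was 1.87 and 1.90 in PcG, 1.58 and 1.66 in PS and 1.52 and 1.67 in PScG. Without PAM it was 1.68 and 1.60 in Z, 1.56 and 1.55 in LH and 1.41 and 1.34 in H, and between 0.782 and 1.06 in the 8 libraries of ScG, ZS, ZcG and ZScG. The PH, PL, PLH and PcG libraries thus lay above every library without PAM, whereas those of PS overlapped with Z and those of PScG with Z and LH.

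Against Ctrl, whose libraries helped to choose the peaks, the median d was 1.20 in PH, 0.79 in PL, 0.78 in PLH, 0.57 in PcG, 0.43 in PS and 0.34 in PScG. A d of at least 1 was reached by 203 members (68.6%) in PH, against 10.2% of all autosomal peaks. The corresponding counts were 99 (33.4%, against 10.3%) in PL, 89 (30.1%, against 11.1%) in PLH and 49 (16.6%, against 12.2%) in PcG. In PS the count was 31 (10.5%, against 12.5%) and in PScG 34 (11.5%, against 13.5%), near the background. Zymosan depleted gave a median d of 0.62, with 67 members (22.6%) at 1 or more against 4.43%, and HMW one of 0.31, with 15 (5.07%) against 4.73%. In the 3367 other PAM-opened peaks the median d was 1.83 in PH, 1.68 in PL, 1.61 in PS and 1.64 in PcG. These peaks were no members because d exceeded 0.5 in L (95.5%), S (70.6%) or cG (63.1%), and in all 3 at 54.4%. Their medians in groups with these ligands thus partly follow from the rule. All differences from Ctrl share the 2 Ctrl libraries, and all but those of Z, ZcG, ScG and ZScG cross the mitochondrial sets.

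**Figure D2:**
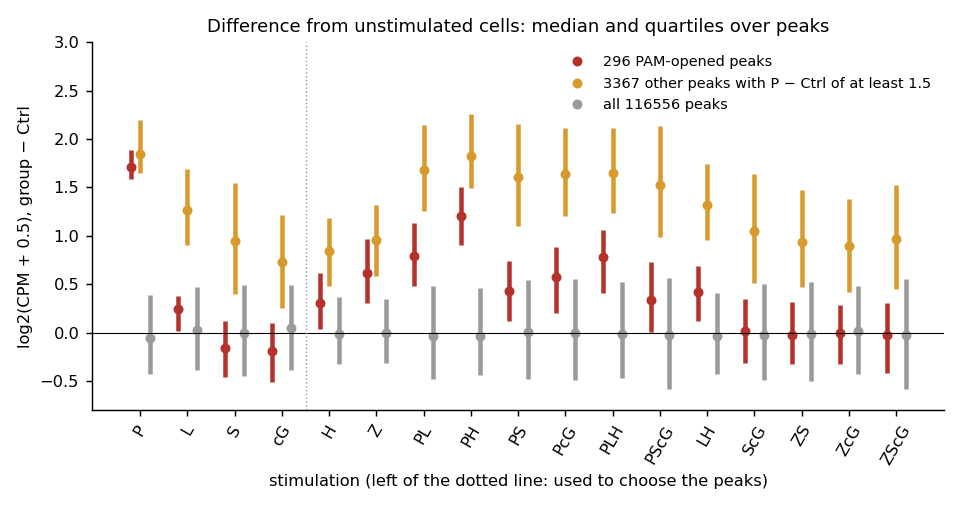
Difference from Ctrl in log2(CPM + 0.5), as median (point) and quartiles (line) over the 296 peaks, the 3367 other peaks with d of P at least 1.5 and all 116556 autosomal peaks. The members' median is 1.71 in P, 1.20 in PH and 0.34 in PScG, while the medians of all peaks stay between -0.06 and 0.05. The limit of 1.5 for P raises its median, so the step from P to the other groups is partly set by the rule.

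The number of PAM combinations that opened a member varied. Of the 296 peaks, 75 (25.3%) had d of at least 1 in none of the 6 PAM combinations, 89 (30.1%) in 1 and 7 (2.36%) in all 6, against 78.9%, 5.53% and 4.79% of autosomal peaks. For 76 of the 89 that single combination was PH (25.7% of members, against 0.941% of autosomal peaks). At 5 members (1.69%, against 0.316% of autosomal peaks) each of the 12 libraries of PAM combinations lay above each of the 14 libraries of H, LH, Z, ScG, ZS, ZcG and ZScG. These 5 were named after their values were seen. They are nearest to Acsl3 (an acyl-CoA synthetase for long-chain fatty acids), Slc1a2 (a glutamate transporter), Pdlim5 (a scaffold protein of the actin cytoskeleton), Lrmda and Actn3 (an actin-binding alpha-actinin). The Acsl3 peak had 15.0 to 23.0 CPM in the PAM combinations and 7.43 to 13.7 in the others. The Pdlim5 peak had 5.26 to 10.0 against 1.83 to 5.06, the Lrmda peak 1.67 to 4.46 against 0.491 to 1.57, and the Actn3 peak 2.15 to 4.08 against 0 to 1.20. These gaps between the sets were narrow except at Slc1a2 and Actn3.

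PAM added to HMW gave the most calls of the 3 additions of PAM that were tested. Counts were fitted with edgeR's quasi-likelihood test over all 36 libraries, and a peak was called where the p-value, adjusted over 119464 tested peaks by Benjamini-Hochberg, was under 0.05. Of the 296 members 295 passed the filter on low counts. In PH against H, 104 members (35.3%) were called higher, against 5.28% of all tested peaks, and 1 was called lower, against 2.27%. The fitted log2 fold change had a median of 1.05 and was above 0 at 278 of 295. Both PH libraries lay above both H libraries at 233 members (78.7%), against 25.5% of autosomal peaks, and below them at 7, against 25.0%. Both groups have mitochondrial shares in the lower set. Among the other PAM-opened peaks, 1881 of 3366 (55.9%) were called higher, with a median of 1.16.

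Among members with a mean CPM of at least 1 over all libraries, the largest fitted change of this contrast was at a 656 bp peak inside Cyb5r4 (chr9:87036422-87037077), which encodes a cytochrome b5 reductase of the endoplasmic reticulum. Its CPM was 0.415 and 0.445 in H and 6.48 and 7.33 in PH, a fitted log2 fold change of 3.95 ± 0.53 (SE; edgeR adjusted p = 1.05e-09). It was 11.4 and 11.6 in P and between 0.253 and 1.37 in the libraries of Ctrl, L, S and cG. The H and PH libraries did not overlap, and PL, PS, PcG, PLH and PScG stood in between, from 1.77 to 4.09 CPM. Another, inside Mras (chr9:99414302-99414764), a Ras-family GTPase, had 0.663 and 0.223 CPM in H and 6.04 and 7.11 in PH, a log2 fold change of 3.75 ± 0.50 (adjusted p = 7.01e-10). The H libraries were below the Ctrl libraries of this peak (1.27 and 1.62 CPM). The rest of the 5 highest were nearest to Cpsf2, Slc1a2 and Gucy2c, with 3.53, 3.51 and 3.26. Without H replicate 1 the Cpsf2 value was 7.82. Gucy2c did not pass without H replicate 1 (log2 fold change 2.41, edgeR adjusted p = 0.115).

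The most accessible members in P showed the same contrast with smaller folds. A peak in Csrnp3, a nuclear protein rich in cysteine and serine (chr2:65851729-65852863), had 4.81 and 5.45 CPM in Ctrl, 45.0 and 48.8 in P, and 7.70 and 7.93 in L. It had 16.1 and 12.0 CPM in H and 31.8 and 35.6 in PH, a log2 fold change of 1.22 ± 0.17 (edgeR adjusted p = 8.45e-09). The PH libraries were the highest outside P, and both Z libraries stood at 20. A peak 189602 bp from Map2k6, the kinase that activates p38 (chr11:110715124-110715777), had 9.53 and 11.1 CPM in H and 29.1 and 22.7 in PH, a change of 1.30 ± 0.19 (adjusted p = 1.6e-08). Peaks in Adgrv1, an adhesion receptor, and Mctp1, a membrane protein with calcium-binding domains, changed by 0.74 ± 0.13 and 0.88 ± 0.16 (adjusted p = 6.47e-06 and 1.95e-05). All 6 of the members with the highest CPM in P were called higher in PH against H, against 35.3% of tested members and 5.28% of all tested peaks. They were picked by their level in P, and the part of their higher counts in these calls was not tested.

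The member called lower was a 200 bp peak 1190 bp from Crebzf (chr7:90441345-90441544), which encodes a bZIP protein, and it is the member whose 2 P libraries disagreed. Its log2 fold change was -4.29 ± 1.24 (edgeR adjusted p = 0.0406), and it rested on 1 library: H had 156 and 10 counts and PH 5 and 4. Without H replicate 1 the change was -1.62 (adjusted p = 0.663), and the call was also lost without either PH library (adjusted p = 0.188 and 0.221). Among members with a mean CPM of at least 1, the next lowest were nearest to Wdr11 (-1.24, adjusted p = 0.151) and Apmap (-0.53, adjusted p = 0.669), which did not pass.

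PAM combined with HMW can also be set against LPS combined with HMW, a comparison added after the data were seen. It is the contrast of PAM with LPS that is nearest to the rule among libraries the rule did not use. In PH against LH, 32 of 295 members (10.8%) were called higher, against 0.601% of all tested peaks, and none lower, against 0.256%. At an unadjusted p under 0.05, 153 were higher and none lower, beside 6410 and 5473 of 116280 tested autosomal peaks. The median log2 fold change was 0.95, and 287 of 295 were above 0. Both PH libraries lay above both LH libraries at 237 members (80.1%), against 21.4%, and below them at 3, against 19.7%. Of the 3366 other PAM-opened peaks 349 (10.4%) were called higher, with a median of 0.55. Both groups lie in the lower mitochondrial set.

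LPS added to HMW moved the members little as a group. In LH against H, also added after the data were seen, 14 members (4.75%) were called higher, against 2.65%, and 2 lower, against 1.13%, with a median log2 fold change of 0.11. Both groups lie in the lower mitochondrial set, as do PLH and LH below. In the other PAM-opened peaks the count called higher was 820 of 3366 (24.4%), with a median of 0.60. Since 95.5% of those peaks had d of L above 0.5, their larger response to LPS partly follows from the rule. Among the members that rose was the Mras peak, with 2.54 and 3.10 CPM in LH against 0.663 and 0.223 in H (2.53 ± 0.54, edgeR adjusted p = 0.000625). The peak in Rab27a (chr9:73068387-73069080), a GTPase of vesicle transport, rose from 1.91 and 1.11 CPM in H to 5.65 and 4.54 in LH (1.70 ± 0.38, adjusted p = 0.00114). At both peaks the PH libraries were higher still, at 10.5 to 12.9 CPM for Rab27a.

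**Figure D3:**
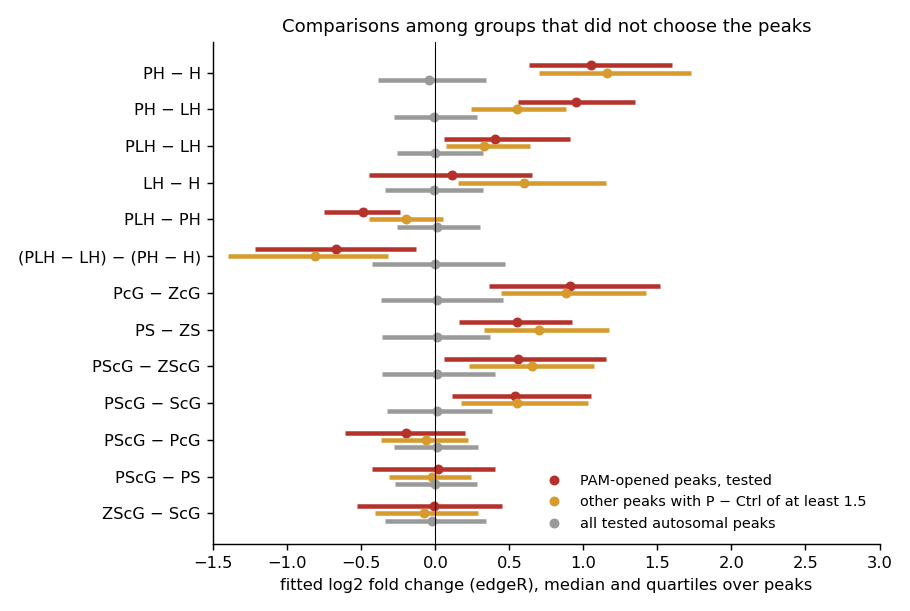
Fitted log2 fold changes in 13 comparisons among groups that did not choose the peaks, as median (point) and quartiles (line) over the 295 tested members, the other PAM-opened peaks and all tested autosomal peaks. The members' medians are 1.05 in PH − H, 0.95 in PH − LH, 0.11 in LH − H and -0.49 in PLH − PH.

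With LPS and HMW both present, PAM added less. In PLH against LH, 9 members (3.05%) were called higher, against 0.343%, and none lower, against 0.203%. Without adjustment, 61 were higher and 2 lower at a p under 0.05, beside 6540 and 5983 of 116280 tested autosomal peaks. The median log2 fold change was 0.40, and 229 of 295 were above 0. The groups did not overlap, with PLH above, at 146 members (49.3%), against 22.5%, and with PLH below at 10, against 20.3%. Of the 5 largest changes of called members with a mean CPM of at least 1, the one with the highest CPM was at a peak inside Itgb8 (chr12:119206824-119207807), the integrin subunit that, paired with alpha-v, activates latent TGF-beta. It had 9.74 and 7.02 CPM in LH and 17.3 and 18.7 in PLH, a change of 1.08 ± 0.20 (edgeR adjusted p = 0.000367). The LH and PLH libraries were well apart, although without LH replicate 2 the call was lost (0.88, adjusted p = 0.137). A peak 50544 bp from Sgip1, an adaptor of endocytosis, changed by 3.20 ± 0.57 (adjusted p = 0.000213). Peaks in Atp8b4, a phospholipid-flipping ATPase, and Lpp, a focal adhesion protein, changed by 2.23 and 1.99 (adjusted p = 0.0422 and 0.0487). Sgip1 lost the call without LH replicate 2 (2.82, adjusted p = 0.0719). Lpp lost it without any 1 of its 4 libraries (adjusted p = 0.0755 to 0.502), and Atp8b4 without any 1 but PLH replicate 1 (adjusted p = 0.182 to 0.708), with a change of 1.29 without PLH replicate 2. At a mean CPM of at least 1, the lowest fitted changes were nearest to Rngtt (-0.84), Marco (-0.79) and Cd59a (-0.78), none of which passed.

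The difference between these PAM effects was tested as an interaction on the log2 scale, (PLH − LH) − (PH − H), another comparison added after the data were seen. It was called lower at 20 of 295 members (6.78%), against 1.68% of all tested peaks, and higher at none, against 0.901%. At an unadjusted p under 0.05, 74 were lower and 6 higher, beside 8899 and 7515 of 116280 tested autosomal peaks. The median was -0.67, and 61 of 295 were above 0. In the other PAM-opened peaks 677 of 3366 (20.1%) were called lower, with a median of -0.81. The largest called departures were in Gucy2c (-3.42 ± 0.98, edgeR adjusted p = 0.0295), Mras (-3.35 ± 0.66, adjusted p = 0.000237), Cyb5r4 (-3.24 ± 0.72, adjusted p = 0.00184) and Mef2a (-2.55 ± 0.66, adjusted p = 0.0121). At Mras, PAM changed accessibility by 3.75 on HMW and by 0.40 on LPS plus HMW. The 20 also included peaks nearest to Rab27a (-2.30), Map2k6 (-1.13), Lox (-1.21), Ednra (-1.60), the endothelin receptor, and Arid5b (-1.58), a DNA-binding regulator. These peaks were named after their values were seen. All 4 groups lie in the lower mitochondrial set.

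LPS added to PAM and HMW was the direct comparison for a reduction by LPS. In PLH against PH no member was called higher (against 0.158%) and 4 were called lower (1.36%, against 0.0896%). The median log2 fold change was -0.49, and only 35 of 295 were above 0. At an unadjusted p under 0.05, 67 were lower and none higher, beside 5753 and 5883 of 116280 tested autosomal peaks. Both PLH libraries lay below both PH libraries at 173 members (58.4%), against 20.9% of autosomal peaks, and above them at 7 (2.36%), against 21.1%. Among the other PAM-opened peaks 9 of 3366 (0.267%) were called lower, with a median of -0.20. The other 291 tested members were not called.

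The 4 called peaks included a 1190 bp peak overlapping Lox (chr18:52529037-52530226), the enzyme that cross-links collagen and elastin. It had 20.2 and 18.9 CPM in PH and 6.81 and 9.09 in PLH, a change of -1.30 ± 0.21 (edgeR adjusted p = 4.11e-05), with -1.10 (adjusted p = 0.0518) without PLH replicate 1. In P it had 37.3 and 33.9 CPM, and in the other PAM combinations 12.6 and 9.41 (PL), 6.83 and 5.55 (PS), 6.56 and 7.84 (PcG) and 6.67 and 5.76 (PScG). Only P and PH stood above Z (12.1 and 13.1), and the combinations with LPS, SeV or 3',3'-cGAMP lay within the range of the libraries without PAM. A peak in Cd59a, an inhibitor of complement (chr2:104105258-104105832), changed by -1.57 ± 0.36 (adjusted p = 0.0161), a call lost without any 1 of its 4 libraries (adjusted p = 0.0723 to 0.301). The Csrnp3 peak fell from 31.8 and 35.6 CPM in PH to 18.7 and 22.3 in PLH (-0.72 ± 0.17, adjusted p = 0.0218). This call too was lost without any 1 of its 4 libraries.

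A peak inside Slc1a2 (chr2:102758182-102758659) behaved otherwise. Its CPM was 3.67 and 3.31 in P and 3.10 to 7.26 in the 12 libraries of PAM combinations. In the 14 libraries of the other groups outside the rule it was 0 to 1.46, with a median of 0.423. The PAM libraries were thus all higher, whatever the partner, with PScG at 7.26 and 6.13. The fitted change was 3.51 ± 0.57 in PH against H, 1.88 ± 0.46 in PLH against LH and 3.33 ± 0.52 in PScG against ScG (edgeR adjusted p = 4.6e-07, 0.0208 and 9.53e-07). The call in PLH against LH was lost without any 1 of its 4 libraries, with adjusted p-values of 0.0515 to 0.302. Its PLH against PH change was 0.14 ± 0.39 (adjusted p = 0.951). The interaction was -1.63 ± 0.77 and did not pass (adjusted p = 0.303). Slc1a2 had 3 members near it, of which 2 were called higher in PH against H.

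**Figure D4:**
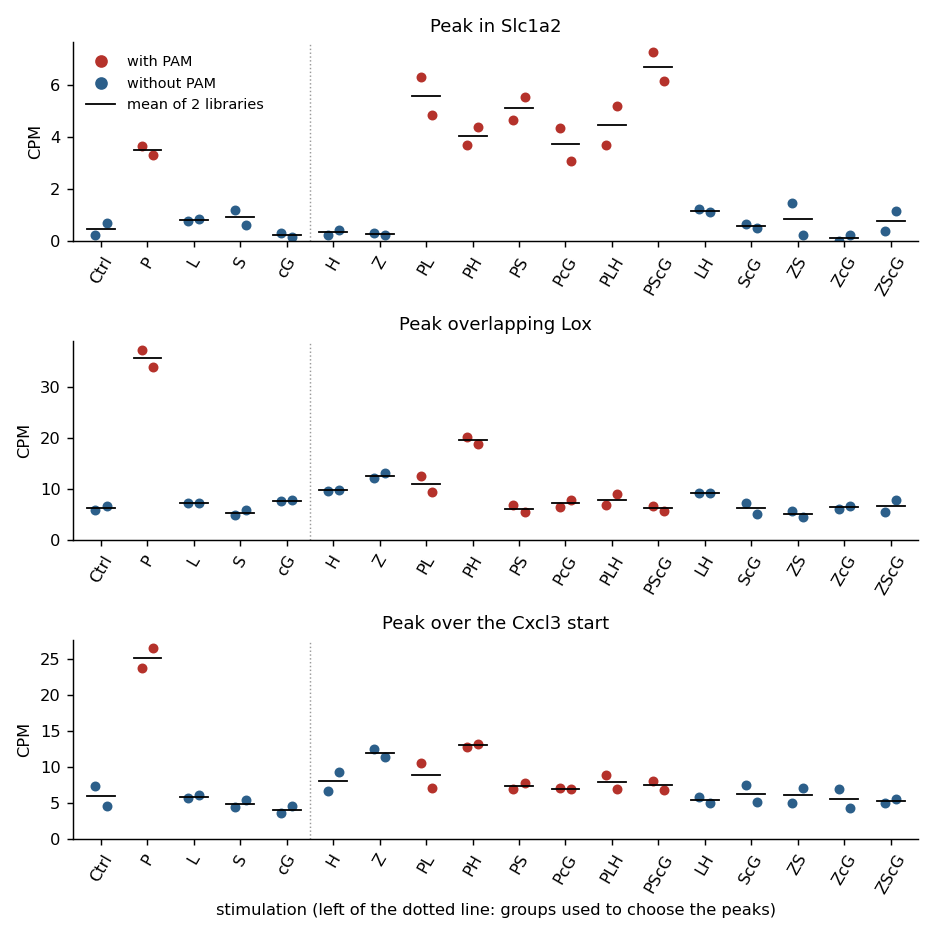
CPM in every library (points) with group means (lines) for the peaks in Slc1a2, over Lox and over the Cxcl3 start. The Slc1a2 peak is above 3 CPM in each PAM library, whereas the Lox and Cxcl3 peaks are highest in P and next in PH.

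PAM added to SeV plus 3',3'-cGAMP gave fewer calls than PAM added to HMW. In PScG against ScG, 23 members (7.80%) were called higher, against 2.11%, and none lower, against 2.42%, with a median log2 fold change of 0.54. Without adjustment, 70 were higher and 3 lower at a p under 0.05, beside 9797 and 9553 of 116280 tested autosomal peaks. Both PScG libraries lay above both ScG libraries at 145 members (49.0%), against 29.5%, and below them at 16, against 16.8%. In the other PAM-opened peaks 641 of 3366 were called higher, with a median of 0.55. This comparison crosses the mitochondrial sets, ScG being in the higher one. After Slc1a2, and among members with a mean CPM of at least 1, the highest were peaks in Atp8b4 (2.93 ± 0.62, edgeR adjusted p = 0.000532), Arhgef4, a guanine nucleotide exchange factor (2.60 ± 0.81, adjusted p = 0.038), and Acoxl, an acyl-CoA oxidase-like protein (2.53 ± 0.68, adjusted p = 0.0114). A peak 231607 bp from Plk2, a polo-like kinase, changed by 2.36 ± 0.71 (adjusted p = 0.0303). Each of the last 3 lost the call without any 1 of 3 of its 4 libraries, with adjusted p of 0.0587 to 0.380 for Arhgef4, 0.0768 to 0.150 for Acoxl and 0.126 to 0.465 for Plk2. Atp8b4 lost it without ScG replicate 1 (adjusted p = 0.0576). The Arhgef4 value was 7.05 without ScG replicate 1 and 1.73 without ScG replicate 2, and the Plk2 value 1.55 without PScG replicate 2. With the same minimum of CPM, the lowest fitted values were nearest to Cdh10 (-1.67), Rgs18 (-1.51) and another Csrnp3 peak (-1.36), none of which passed.

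The additions of PAM to HMW, to LPS plus HMW and to SeV plus 3',3'-cGAMP share no library. All 3 called 4 of 295 members higher, and 57 of all tested peaks (0.0477%). Exactly 2 of the 3 called 15 members, 1 called 94 and none called 182. For these numbers the share over all tested peaks was not counted. The fitted log2 fold change was above 0 in all 3 at 179 members (60.7%), against 16.0% of all tested peaks.

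PAM in place of depleted zymosan was tested beside 3 partners. Beside 3',3'-cGAMP (PcG against ZcG), 64 members (21.7%) were called higher, against 4.69%, and none lower, against 5.19%, with a median of 0.91. Both PcG libraries lay above both ZcG libraries at 208 members (70.3%), against 38.3%. Beside SeV (PS against ZS) 21 (7.12%) were, against 4.18%, and none lower, against 2.98%, with a median of 0.55. Beside SeV plus 3',3'-cGAMP (PScG against ZScG) 24 (8.14%) were called higher, against 3.12%, and 1 lower, against 1.79%, with a median of 0.56. Over the other PAM-opened peaks these shares were 38.9%, 30.7% and 22.3%. The first and the last cross the mitochondrial sets, ZcG and ZScG being in the higher one, and PS against ZS lies within the lower one by group means, although ZS replicate 1 had a share of 58.1%, beside 51.0% in ZS replicate 2 and 46.6% and 45.0% in PS. Depleted zymosan added to SeV plus 3',3'-cGAMP (ZScG against ScG, added after the data were seen) gave no higher call (against 0.324%) and 1 lower call (against 0.448%), with a median of -0.01. It had 6 higher and 15 lower of 295 at an unadjusted p under 0.05, beside 6134 and 7891 of 116280 tested autosomal peaks.

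SeV added to PAM plus 3',3'-cGAMP (PScG against PcG) left no member called higher, against 0.202%, and 5 called lower (1.69%), against 0.210%, with a median of -0.20. At an unadjusted p under 0.05, 6 were higher and 31 lower, beside 6120 and 6015 of 116280 tested autosomal peaks. The 2 lowest were a peak 57305 bp from Ftmt, mitochondrial ferritin (-1.49 ± 0.38, edgeR adjusted p = 0.0405), and a peak 884 bp from Slc7a11 (-1.40 ± 0.28, adjusted p = 0.00244). Ftmt lost the call without any 1 of its 4 libraries (adjusted p = 0.138 to 0.322), and Slc7a11 without PScG replicate 1 (adjusted p = 0.117) or PcG replicate 1 (adjusted p = 0.0622). In PScG against PS neither direction had a call by edgeR (0.368% and 0.234% of all tested peaks) or by DESeq2. The median was 0.02. With no adjustment, 11 members were higher and 22 lower at a p under 0.05, beside 5411 and 5941 of 116280 tested autosomal peaks. Both comparisons lie within the lower mitochondrial set.

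Members lay near 251 protein-coding genes, 33 of them with 2 or more members and 9 with 3 or more. Another member lay within 100000 bp of 56 (18.9%). The densest stretch was at Slc7a11, which encodes the cystine-importing subunit of the cystine/glutamate antiporter and feeds glutathione synthesis. Its 5 members span chr3:50362077-50429371, 4 of them inside the gene and 1 at 884 bp beyond its end. Of the 44 autosomal peaks that overlap the gene, 19 had d of P at least 1, 3 had d of L at least 1, 1 d of S and 3 d of cG. Over all autosomal peaks these shares were 8.29%, 8.25%, 10.5% and 8.67%. The median d over the 44 was 0.98 for P and 0.20 for L. These are values that the rule used, 4 of the 44 are members, and the locus was taken for its density of members, so they are a description only.

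The peak beyond the gene's end (chr3:50362077-50364052) was the most accessible of the 5. Its CPM was 3.80 and 3.94 in Ctrl, 19.7 and 20.7 in P, 5.39 and 3.89 in L, 5.64 and 8.12 in H and 16.5 and 15.4 in PH. It was 9.90 and 10.1 in PL, 10.3 and 10.1 in PcG and 8.19 and 9.97 in PLH, but 3.39 and 4.00 in PScG, beside 3.89 to 4.14 in ScG and ZScG. The PH libraries were above both H and both LH libraries, with fitted changes of 1.20 ± 0.25 (edgeR adjusted p = 0.000163) and 1.73 ± 0.26 (adjusted p = 8.4e-07). PcG against ZcG gave 1.19 ± 0.29 (adjusted p = 0.00167). The 4 members inside the gene were less accessible and had d of P of 1.55 to 1.81, and none of them was called in PH against H.

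**Figure D5:**
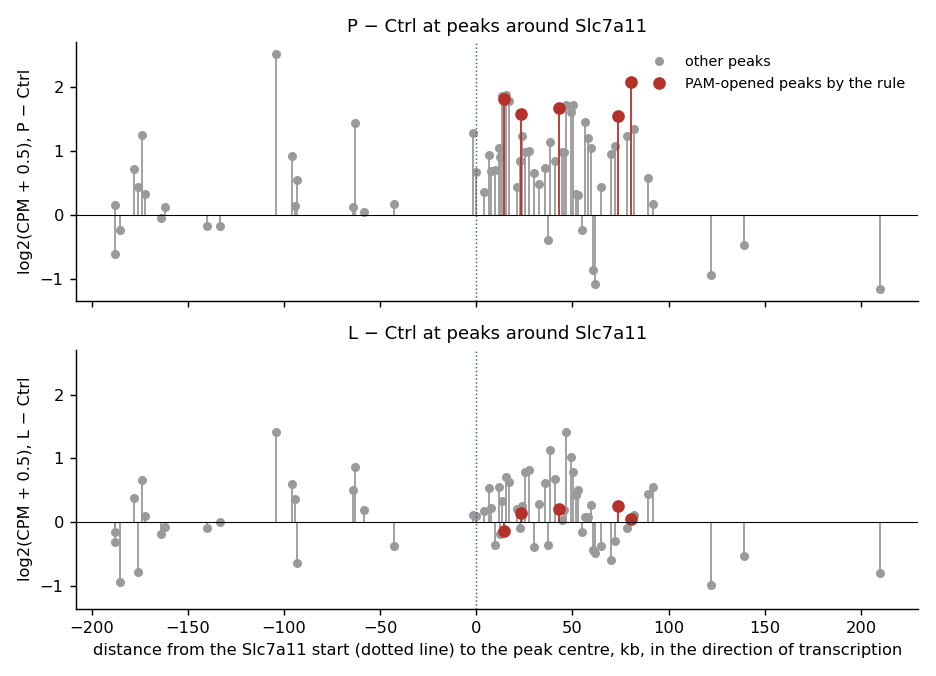
Difference from Ctrl with PAM (upper) and with LPS (lower) at autosomal peaks around Slc7a11, with the 5 members in red. Distance is in kb from an annotated start of the gene to the peak centre. That start lies inside the annotated span of the gene, so peaks at -1.91 and -42.7 kb also overlap the gene. Of the 44 peaks over the gene 19 reach 1 with PAM and 3 with LPS.

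Ets1, a transcription factor of the ETS family, had 4 members near it, 1 inside the gene and 3 between 166547 and 204900 bp away. The most accessible (chr9:32958449-32959161) had 3.29 and 2.2 CPM in Ctrl, 14.9 and 13.8 in P, 4.24 and 3.31 in L, 3.98 and 4.45 in H and 9.89 and 10.7 in PH. Its PH against H change was 1.27 ± 0.30 (edgeR adjusted p = 0.00132), and a neighbour (chr9:32962720-32963111) changed by 2.27 ± 0.55 (adjusted p = 0.00197). At both peaks the PH libraries lay above the H libraries. Acvr2a, an activin receptor, had 3 members in front of it, of which 2 were called higher in PH against H. A weakly accessible one, 201471 bp away, had 0.166 and 0.111 CPM in H and 2.28 and 2.67 in PH (3.98 ± 0.83, adjusted p = 0.000196). The peak closest to the gene, 2741 bp away, had 2.32 and 3.67 CPM in H and 6.65 and 10.2 in PH (1.49 ± 0.33, adjusted p = 0.000526). Cyp7b1 (an oxysterol hydroxylase), St8sia4 (which builds polysialic acid) and Unc5c (a netrin receptor) each had 3 members, of which 1 was called. Net1 (a guanine nucleotide exchange factor) and Rgs18 (a regulator of G protein signalling) had 3 each, of which none was called.

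Genes of the pathways around PAM and LPS were looked up in lists of signalling and response genes, counting peaks within 50000 bp of a listed gene. Of 28 inflammatory cytokines and chemokines, 533 peaks were near, 4 of them members, and 88 (16.5%) were called higher and 4 lower in PH against H. The 22 genes of TLR2 and shared MyD88 signalling had 406 peaks, 3 of them members, with 39 of 404 tested (9.65%) called higher and 4 lower. The 14 lectin and phagocytic receptors had 271 peaks and 3 members, with 20 of 270 (7.41%) called higher. The AP-1 and MAP kinase list (24 genes, 507 peaks) had 1 member and 27 peaks (5.33%) called higher, and the interferon response list (19 genes found, 325 peaks) 1 member and 12 of 324 called higher. No member lay near the 11 genes of the TLR4 and TRIF branch (221 peaks) or the 10 NF-kappaB subunits and inhibitors (244 peaks). None lay near the 16 genes of lipid metabolism and the hypoxia response (414 peaks). The shares called higher in these lists were 5.45%, 11.1% and 5.34%. All these shares of calls stand beside 5.28% over all tested peaks, and each list had 3 to 9 peaks called lower. In the lists that held members, these made up 0.750%, 0.739%, 1.11%, 0.197% and 0.308% of the peaks, in the order given. The share over autosomal peaks was 0.254%. At that share the lists without a member would hold few or none, so their absence is not read as a result.

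The 4 members near cytokine genes lay at Cxcl3, Il1b and Il10. The peak over the Cxcl3 start, whose promoter sequence is given above, is chr5:90785601-90786628. It had 7.35 and 4.52 CPM in Ctrl, 23.7 and 26.5 in P, 5.68 and 6.05 in L, 4.43 and 5.36 in S and 3.59 and 4.51 in cG. It had 12.5 and 11.4 CPM in Z, 6.63 and 9.35 in H, 5.89 and 5.06 in LH and 12.8 and 13.2 in PH. The PH libraries were above both H and both LH libraries, and Z came next. The fitted change was 0.69 ± 0.23 in PH against H (edgeR adjusted p = 0.0495) and 1.23 ± 0.24 in PH against LH (adjusted p = 0.000978). In PL the 2 libraries had 10.6 and 7.12 CPM and in PLH 8.88 and 6.94, and PLH against LH did not pass (0.52 ± 0.25, adjusted p = 0.448). PScG against ScG and PcG against ZcG gave 0.13 and 0.11 (adjusted p = 0.877 and 0.862).

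A second member begins at the last base of Cxcl3 and runs beyond it (chr5:90788093-90790032). It had 9.45 and 8.57 CPM in H, 18.7 and 17.0 in PH, 6.47 and 5.99 in LH and 12.0 and 11.6 in PLH. The libraries did not overlap in these 3 comparisons: PH against H gave 0.95 ± 0.21 (edgeR adjusted p = 0.000488), PH against LH 1.5 ± 0.22 (adjusted p = 4.43e-07) and PLH against LH 0.91 ± 0.23 (adjusted p = 0.0269). The call in PLH against LH was lost without PLH replicate 2, and also without LH replicate 1. The promoter peaks of the related chemokines were no members. For Cxcl1 d was 1.60 with P, 0.35 with L and 1.16 with S and 0.96 with cG, above the limits for S and cG. For Cxcl2 d was 0.98 with P and -0.04 with L, below the limit for P. In PH against LH the Cxcl2 peak changed by 0.68 ± 0.10 (adjusted p = 3.46e-07) and the Cxcl1 peak by 0.96 ± 0.27 (adjusted p = 0.0539), which did not pass. For Cxcl1, PH against H gave 0.07 ± 0.25 (adjusted p = 0.924) and LH against H -0.89 ± 0.28 (adjusted p = 0.0427). For Cxcl2 they gave 0.40 ± 0.10 (adjusted p = 0.00161) and -0.27 ± 0.10 (adjusted p = 0.104).

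The member inside Il1b, the gene of interleukin-1 beta (chr2:129365857-129366450), had 0.507 and 0.579 CPM in Ctrl, 2.68 and 3.5 in P and 0.770 and 0.360 in L. It had 0.746 and 1.34 CPM in H and 3.24 and 3.63 in PH, a change of 1.72 ± 0.54 (edgeR adjusted p = 0.0283). PL (2.67 and 3.09), PcG (2.00 and 2.24) and PLH (2.76 and 2.83) stood near P, while Z had 0 and 0.246. It was the only member among the 7 autosomal peaks that overlap Il1b. Of the 7, 6 had d of P at least 1 and 3 had d of L at least 1, with medians of 1.62 and 0.72. Other peaks of the gene thus rose with LPS too. The peak 4689 bp from Il10, an anti-inflammatory cytokine, had 2.57 and 2.00 CPM in H and 4.46 and 5.19 in PH and did not pass (1.04 ± 0.39, adjusted p = 0.0884). The remaining members near listed genes did not pass in PH against H either. Their fitted changes were 1.04 at Cd36, a scavenger receptor that assists TLR2, 0.78 at Irak3, an inhibitor of MyD88 signalling, and 0.16 near Pik3ap1, an adaptor to PI3 kinase. They were 1.22 near Marco, a scavenger receptor, 1.46 and 0.50 at the pair near Clec4e, the lectin receptor Mincle, 0.79 near Dusp4, a MAP kinase phosphatase, and 0.68 near Ifit2, an interferon-induced gene. None of the 4 peaks that overlap Marco itself had d of P at least 1, and their median was -0.24. Of the 7 that overlap Clec4e, 3 had d of P at least 1, 1 d of L, 2 d of S and 2 d of cG.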

How the data were processed

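ATAC-seq was done on 36 libraries of 18 groups, and the deposited values are whole-number counts per peak in 1 table with 1 set of peaks for all libraries. Per the submitters' processing notes, which give no order or role, the tools were Bowtie2 2.2.9, MACS2 1.4, bedtools and featureCounts and the build was mm10; filters, the handling of duplicate reads and any shift of read ends are not given in the sources used here. The authors' peak positions were used as deposited and are printed counted from 1.

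Members were taken by the rule given in the report, with CPM over chromosomes 1 to 19 without the autosomal peak of largest count. The rule, the gene lists and the motifs were chosen with earlier results of these data known. Counts were then tested with edgeR 4.0.16 in R 4.3.3: TMM scaling, filterByExpr, 1 fit over all 36 libraries without the mitochondrial peak, a quasi-likelihood test per contrast and Benjamini-Hochberg adjustment over 119464 peaks, with 18 residual degrees of freedom. The steps were tested on simulated data. Comparisons of PH with LH, LH with H and ZScG with ScG and the interaction were added after the data were seen. Peaks were named by the gene overlapped or nearest: the 5 highest called and 3 lowest fitted changes per addition of PAM (mean CPM at least 1), the 6 highest in P, up to 12 near listed genes, the 2 highest and lowest calls where a ligand was added to PAM, and the densest locus. Genes and promoter windows came from RefSeq (GRCm38.p6, the same assembly as mm10). Alternatives were other scalings, no filter, DESeq2 1.42.0, a replicate block, each library left out and other settings of the rule. The numbers of the 2 libraries of a group do not pair libraries across groups. Some of the marker genes checked are not reported here.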

Additional observations from a re-analysis of the deposited data

Results flagged for a closer look

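The effect of PAM differed between cells given HMW alone and cells given LPS plus HMW. By the interaction test of (PLH − LH) − (PH − H) in edgeR, 20 of 295 tested members differed, with a lower log2 effect of PAM in the presence of LPS at each of the 20, against 1.68% of all tested peaks called in that direction. The count was 11 to 14 when any 1 of the 8 libraries was left out. Peaks with d of P at least 1.5 that were no members were called in the same direction at 677 of 3366 (20.1%).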

How the results depend on the processing

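The 296 peaks became 176 with a pseudocount of 1 (112 shared), 122 with an upper limit of 0.25 for L, S and cG, 49 with d of P at least 2, 388 with a pseudocount of 0.25 (215 shared), 289 without centring (176 shared) and 281 with the mitochondrial peak left out of CPM in place of the autosomal one (214 shared). The cause was not tested beyond what these settings change by construction. Scaling by total counts alone put the median log2 fold change of all peaks at 0.30 in PScG against ScG and 0.21 in PS against ZS. It was 0.48 in PcG against ZcG and 0.30 in PScG against ZScG. The members called higher became 57, 52, 130 and 54 of 295, in that order. Calls over all 119464 tested peaks rose as well, to 10758, 11480, 26618 and 13432. With TMM scaling they were 2524, 4996, 5601 and 3724. The DESeq2 Wald test called 5 members higher in PLH against LH, 14 in PScG against ScG and 1 lower in LH against H. Over all 119464 tested peaks the same calls numbered 366, 2485 and 1138.

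Leaving out 1 library at a time, with the lone library assumed to vary like the other groups, gave 52 to 73 members higher in PH against H, 1 to 4 in PLH against LH, 5 to 10 in PScG against ScG, 10 to 13 in PS against ZS, 33 to 41 in PcG against ZcG, 10 to 16 in PScG against ZScG, 11 to 17 in PH against LH, 2 to 8 in LH against H and 0 to 1 in ZScG against ScG. The members called lower were 0 to 1 in PLH against PH, 1 in PScG against PcG in each case, 0 to 1 in LH against H and 11 to 14 in the interaction. The peak nearest to Apmap, not called in PH against H, had 0.70 without H replicate 1 and -1.12 without H replicate 2. Among the 19 counts, 140 of 196 alternative values were within 1.5 times, and of 265 values of 28 changes at named peaks 226 kept direction and side of the threshold, 38 lost the call and 1 reversed, with 15 DESeq2 values without an adjusted p left out.

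Libraries with the same number in different groups did not deviate together (correlations of -0.04 to 0.03 over 153 pairs of groups), so the numbers do not pair them. A replicate block gave 103 members higher in PH against H, 9 in PLH against LH and 22 in PScG against ScG and moved no count by over 1.5 times. With 2 libraries per group and a median autosomal depth of 10157839 counts, depth and replication limit what single members of low CPM can show.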

Other observations

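The members were spread over all autosomes, with 27 (9.12%) on chromosome 3, against 5.81% of autosomal peaks, 26 (8.78%) on chromosome 6, against 6.05%, and 8 (2.70%) on chromosome 5, against 5.86%. These shares were not tested. Besides the peaks named by rule, the 23 members called higher in PScG against ScG included peaks nearest to Abhd5, a cofactor of triglyceride breakdown (0.94, edgeR adjusted p = 0.0101), Elmo1, which acts with DOCK proteins on Rac during phagocytosis (1.57, adjusted p = 0.0126), and Klf6, a zinc finger factor (2.34, adjusted p = 0.0342). They were chosen after their values were seen. The Abhd5 peak also rose in PH against H (1.17, adjusted p = 4.35e-06) and was called lower in the interaction (-1.05, adjusted p = 0.0199).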
